A study of Mus musculus with 2 samples.

Results

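Long-read RNA sequencing places some transcript models wholly inside introns, and 337 such intronic loci were found in the left cortex of aged mice. A locus was built from models that the deposited tables give to an annotated gene, class as genomic and list with 1 exon, whose interval touches no annotated exon of that gene. Overlapping models on one strand were joined, and a locus was kept at 5 or more reads over both libraries. The rule kept 337 of 4437 loci with any read (7.60%), and the kept loci held 5491 of the 10982 reads on all of them (50%). The loci were chosen by their pooled reads, so this abundance is given as a description with no test. There were 65 loci at 5 reads, just inside the minimum, and 127 at 4 reads, just outside it.

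The series holds 1 group of 2 libraries, replicate 1 and replicate 2, from left cerebral cortex. The mice were of strain B6CASTF1/J and 18 to 20 months old, an F1 cross, with no treatment or genotype contrast. Each library started from 2 µg of total RNA. The labels call the libraries biological replicates and give each its own biosample entry but 1 donor entry, while the description of both names the same 2 source samples. Whether a library comes from 1 animal or pools 2 is not stated, so the spread between them may be partly technical. Replicate 1 held 857784 mouse reads and replicate 2 held 827970. The sex field says female while a description says male. Xist, the long noncoding RNA of the inactive X chromosome, had 34 and 29 reads, and the Y-linked genes Ddx3y, Eif2s3y, Kdm5d and Uty had 0 in both libraries.

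Introns are transcribed with the rest of a gene and cut out of the pre-mRNA by the spliceosome, after which most are degraded. Reads from an intron can therefore come from unspliced or partly spliced precursor RNA, from excised introns, or from a separate gene nested in the intron on either strand. Long-read cDNA libraries are commonly primed with oligo(dT), which anneals to a poly(A) tail and can also anneal to adenines encoded inside an RNA. A model of 1 exon holds no splice site that would show its strand, and how strand was set is not given in the sources used here. In bulk tissue, more cells with a locus and more RNA per cell cannot be told apart.

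The genomic bases around the 3′ ends of the loci are shown first, since a stretch of adenines there recurred among the loci opposite an exon, a feature that the rule did not use. Each line gives the host gene of the locus, then 30 bases on the strand of the locus, 5′ to 3′: the last 10 bases of its most-read model and the 20 genomic bases that follow it. Capitals mark runs of 6 or more adenines. Bases are those of GENCODE M21 transcripts placed on mm10. The first 8 loci lie opposite an exon of another gene and have adenines after the end.
Gm48091 (chr9:28920385-28920414, minus strand): ccactcattcAAAAAAAAAAAAAAAAAAAA
Gm10684 (chr9:45128682-45128711, minus strand): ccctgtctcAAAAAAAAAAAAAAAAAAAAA
Gm15738 (chr16:13416219-13416248, minus strand): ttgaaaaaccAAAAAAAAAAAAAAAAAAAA
Gm45193 (chr6:57508213-57508242, plus strand): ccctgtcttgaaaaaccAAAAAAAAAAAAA
Gm44686 (chr7:73545637-73545666, plus strand): aaacaataccAAAAAAAAAAAAActagaca
Prkg1 (chr19:31085527-31085556, minus strand): aacaatgcttAAAAAAAAAAAAAcaaaaac
Dnajc19 (chr3:34072215-34072244, minus strand): tccaagccatAAAAAAAAAAAAAAAAAAAA
Paqr3 (chr5:97091231-97091260, minus strand): tgtgaattctAAAAAAAAAAAAAAAAAAAA

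The next 3 also lie opposite an exon and have no such run, and the last 2 lie on the same strand as an exon of another gene.
Glp2r (chr11:67686924-67686953, minus strand): tgaaggggcagaacattgaactggttgcta
Epo (chr5:137526987-137527016, minus strand): agcatgggcagggcgggagggctaggagtg
Trim28 (chr7:13005536-13005565, plus strand): aatccaagtctaggatatcaaagcaaattg
Gm49325 (chr10:77617413-77617442, plus strand): tggtattctgtctcttggcctatgttaaac
Kif17 (chr4:138260956-138260985, plus strand): tcagtcgactgcagaagtcgttttcctgtt

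The 337 loci took 2374 reads in replicate 1 and 3117 in replicate 2. Replicate 1 thus gave them 0.277% of its mouse reads, with a 95% Wilson interval of 0.266 to 0.288%. Replicate 2 gave them 0.376%, with an interval of 0.364 to 0.390%. Both intervals cover counting error only. All intronic single-exon genomic models together took 0.530% and 0.777%, while the single-exon genomic models that overlap an exon of their gene took far more, 5.58% and 5.88%. The median locus had 8 reads over both libraries. Reads were concentrated: the 3 leading loci held 1044 reads (19%), 10 loci held 32.5% and 25 held 43.3%. Intron numbers and lengths below refer to the gaps between the joined exons of all transcripts of a host, not to 1 transcript. All 337 loci lay wholly within an intron of an annotated transcript of the host. With respect to other genes the name is narrower, since 40 of the 337 overlap a same-strand exon of another gene and 15 of those are wholly covered by it.

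Most of the loci were read in both libraries. Of the 337, 297 (88.1%) had reads in both, 9 in replicate 1 only and 31 in replicate 2 only. A locus was usually 1 model in each library, as in 264 of the 337. The share in both libraries followed depth, at 39.7% of the loci of 2 reads, 86.2% of those of 5 reads and 94.9% of those of 20 to 49 reads. The plot of replicate 1 against replicate 2 shows most loci below the line of equal share, and of the 40 loci that share a strand with an exon of another gene only 25 had reads in both.

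**Figure D1:**
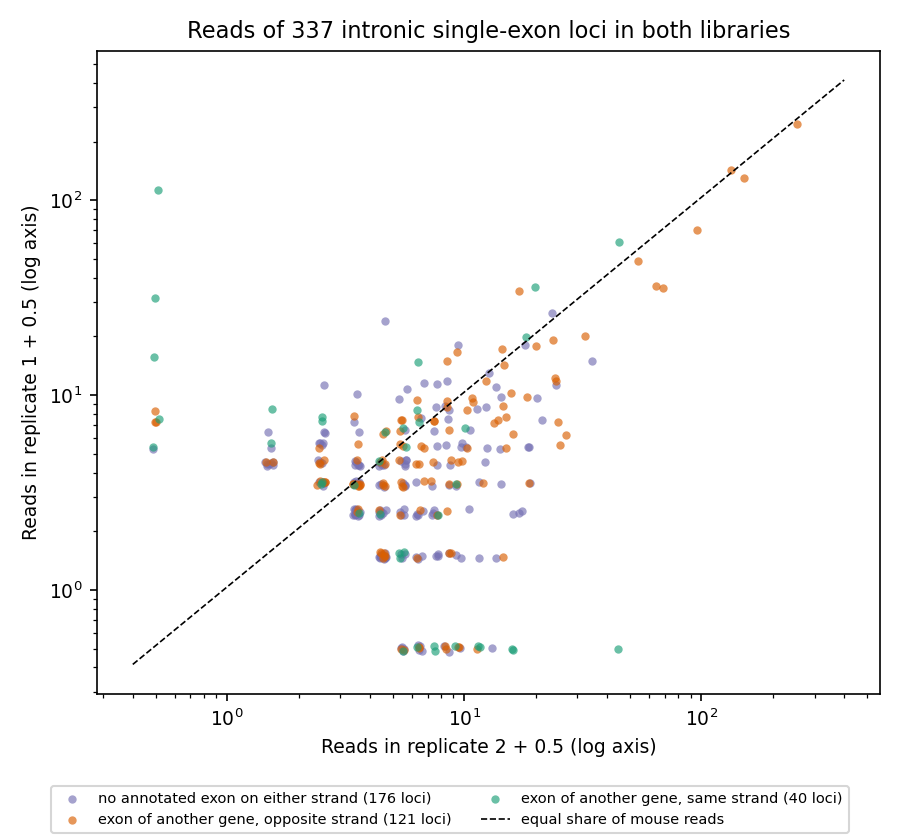
Reads of the 337 intronic loci in replicate 2 (horizontal) and replicate 1 (vertical), each plus 0.5 on a log axis with a slight scatter, coloured by the annotated exons at the locus; the dashed line marks an equal share of mouse reads. Loci with no exon on either strand and those opposite an exon lie mostly below the line, with 131 of 176 and 92 of 121 higher in replicate 2.

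The loci fell into 3 classes by the exons of other genes they overlap. An overlap of 1 base was enough to place a locus, and loci with so small an overlap were not counted apart. No annotated exon on either strand was touched by 176 loci, which held 696 reads in replicate 1 and 1101 in replicate 2. An exon of another gene on the opposite strand was touched by 121 loci, with 1289 and 1706 reads, or 54.5% of all reads on the loci. An exon of another gene on the same strand was touched by 40 loci, with 389 and 310 reads. Loci with the most reads were the ones most often opposite an exon: 10.4% of the loci of 1 read, 51.3% of those of 20 to 49 reads and 75% of the 12 loci of 50 or more. The share on the same strand as an exon rose too, at 2.83%, 10.3% and 25% of the same loci. Median width rose from 1283 nt at 1 read to 2759 nt at 50 or more, and the part of width in these shares was not tested.

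**Figure D2:**
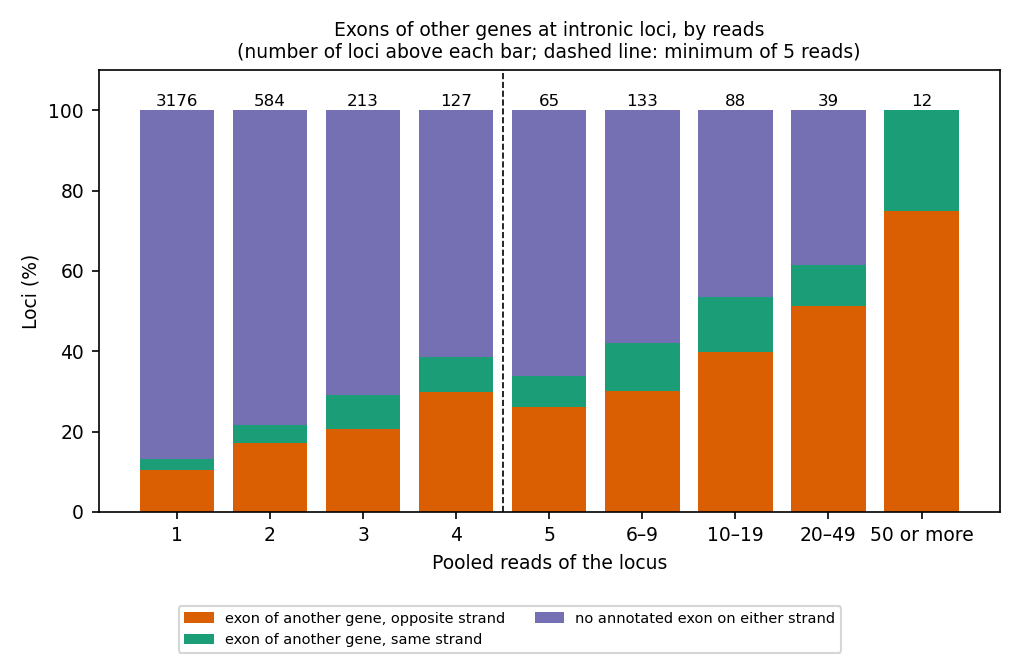
Share of all 4437 intronic loci in each class of exon overlap (vertical, %) by pooled reads of the locus (horizontal), with the number of loci above each bar. The share opposite an exon of another gene is 10.4% at 1 read and 75% at 50 or more reads. The share on the same strand as one is 2.83% and 25%.

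Among the 121 loci opposite an exon, the other gene was protein coding in 101. The largest part of the overlap was 3′ untranslated sequence in 40 loci, noncoding exon in 46, coding sequence in 28 and 5′ untranslated sequence in 7. In 32 the exons of the other gene covered the whole locus, but the median locus was covered over 17.7% of its length. In 36 of the 121 the locus had more reads than the other gene.

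The locus with the most reads of all lay in intron 13 of Glp2r, the receptor gene for glucagon-like peptide 2 (chr11:67683688-67688990, minus strand). It had 240 reads in replicate 1 and 252 in replicate 2, out of 241 and 252 reads given to Glp2r in all, and no read of Glp2r was spliced. The whole interval is opposite the 3′ untranslated region of Gas7, a growth arrest gene expressed in neurons, which had 55 and 51 reads. Both libraries thus held several times more reads on the locus than on the gene opposite it. No run of adenines follows its 3′ end in replicate 2, as its sequence above shows.

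The second and the third lay in genes annotated as antisense RNAs. The locus in Gm15337 had 125 and 153 reads and is wholly opposite the 3′ untranslated region of Arhgap26, which encodes a GTPase-activating protein and had 16 and 8 reads. The locus in Gm48091 (chr9:28920405-28921078, minus strand) had 138 and 136 reads and is wholly opposite the 3′ untranslated region of Opcml, a neuronal cell adhesion gene with 17 and 23 reads. Its models had the same 2 ends in both libraries, and the 20 bases after the 3′ end are all adenine. In each of these 3 loci both libraries held over 100 reads. The adenine run was present at the Gm48091 locus and absent after the replicate 2 end of the Glp2r locus. The bases after the replicate 1 end of the Glp2r locus are not shown.

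A locus in intron 3 of Macrod1, which encodes an ADP-ribosyl hydrolase, had 68 and 95 reads (chr19:7085124-7090751, plus strand). Only 16.9% of it is opposite an annotated exon, that of the antisense gene AC109619.1. The 3′ ends of its leading models were identical in the libraries, and the 5′ ends were 4480 nt apart.

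Leading loci with fewer reads lay opposite genes of many kinds. Gm10684, opposite the 3′ untranslated region of the sodium channel subunit gene Scn2b, had 34 and 16 reads against 25 and 18 on Scn2b. Epo, which encodes erythropoietin, had 18 and 19 reads, all of them on an intronic locus opposite Gigyf1, which regulates translation and had 6 and 11 reads. Gm44686 had 11 and 23 reads on a locus wholly opposite 1810026B05Rik and partly opposite Chd2, a chromatin remodeller gene. Gm26848 had 36 and 64, of which 51.9% of the length is opposite the pseudogene Tmem181b-ps. For some, the overlap was a single base, as for Gm15283 (19 and 33 reads) at Hif1a, the hypoxia-inducible factor, and for the leading locus of Strbp (19 and 24 reads) at Rabgap1. AC122898.1 had 12 and 23 reads and Gm46367 had 6 and 26. The Gm46367 locus is opposite an exon of Numb, a regulator of Notch signalling, over 1.38% of its length. Runx2, known as the master transcription factor of bone formation, had 7 and 25 reads on a locus that is opposite its antisense gene Runx2os1 over 10.4% of its length.

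**Figure D3:**
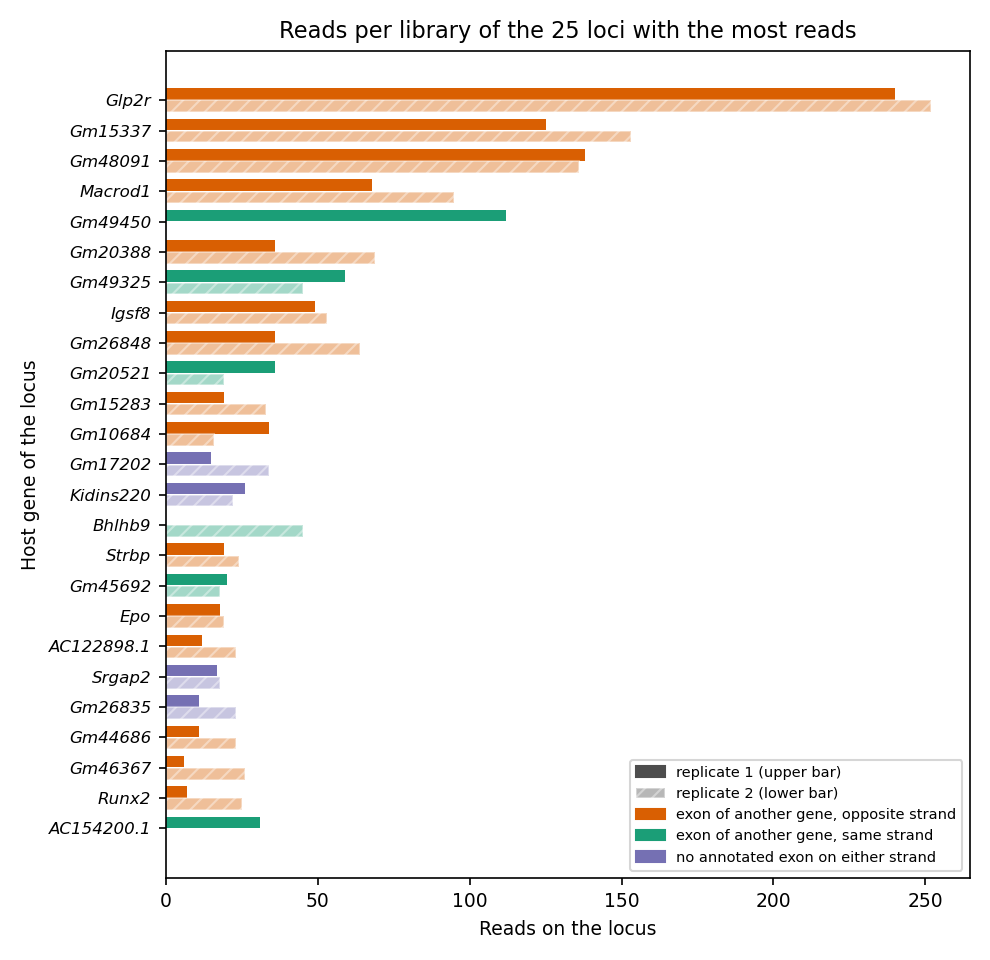
Reads (horizontal) of the 25 loci with the most reads, named by host gene, with replicate 1 in the upper and replicate 2 in the lower bar of each pair, coloured by class. Glp2r leads with 240 and 252 reads, while Gm49450, Bhlhb9 and AC154200.1 have reads in 1 library only.

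Loci on the same strand as an exon of another gene numbered 40. In 15 of them the exons of the other gene covered the whole locus, and the main overlap was 3′ untranslated sequence in 17. The median locus was covered over 68.1% of its length, and for some the overlap was a single base. The locus of Gm49325 had 59 and 45 reads, wholly within exons of Sumo3 and mainly in its 3′ untranslated region. Sumo3 encodes a small ubiquitin-like modifier and had 234 and 180 reads of its own. The locus of Gm20521 had 36 and 19 reads, wholly within the 3′ untranslated region of Bcl2l2, an anti-apoptotic gene of the BCL2 family. Bcl2l2 itself was given 0 reads in both libraries. The locus of Gm45692 had 20 and 18 reads within the 3′ untranslated region of Rnf170, a ubiquitin ligase gene with 30 and 23 reads. These loci sat nearer the start of the host intron, with a median place 24.9% of the way through it, against 50.8% for those opposite an exon and 54.5% for those with no exon.

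The 176 loci with no annotated exon on either strand differed in width. The widths, plotted beside the distances between ends, had a separate peak under 350 nt. This class had 44 loci under 350 nt, each in a different host, with a median of 180 nt. Of these, 32 lay between 160 and 199 nt wide, and 40 of the 44 were in protein-coding hosts. Replicate 1 gave the short loci 248 reads and replicate 2 gave them 218, and the ratio of their shares of mouse reads was 1.10. The other 132 had a median width of 2580 nt, with 448 and 883 reads, a ratio of 0.490. Both ends of the short loci recurred: of 42 read in both libraries, the 5′ ends of the leading models were within 5 nt in 39, the 3′ ends in 32, and both in 30. Of the 121 longer ones read in both, the 5′ ends were that close in 35, the 3′ ends in 88 and both in 28. The width of a locus spans the models of both libraries, so ends that lie far apart make a locus wide. The contrast in ends between short and longer loci is therefore partly set by the width limit. The width limits were chosen after the values were seen.

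The short locus with the most reads lay in intron 23 of Kidins220, a scaffold of neurotrophin receptor signalling (chr12:25021360-25021570, plus strand), with 26 and 22 reads over 211 nt. Srgap2, a GTPase regulator that shapes dendritic spines, had 17 and 18 reads over 214 nt (chr1:131331047-131331260, minus strand). Both hosts also had spliced reads, 53 and 45 for Kidins220 and 18 and 19 for Srgap2. Next by reads came Nckap5 (17 and 9 reads over 90 nt), Btk (11 and 13 over 196 nt) and Gm44511 (12 and 12 over 173 nt), named here after their values were seen. Btk, a kinase of B cells and myeloid cells, had 12 and 13 reads in all and none was spliced. Among loci with fewer reads the same width was common too: 13.2% of the no-exon loci of 1 read were 160 to 199 nt wide, 16.3% of those of 2 to 4 reads, 22.5% of those of 5 to 9 and 8.93% of those of 10 or more. Among models of 5 or more reads elsewhere, the share was 12.6% for intergenic ones, 0.767% for antisense ones and 0.714% for exon-overlapping genomic ones. The bases of these short loci were not analysed here.

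Longer loci of this class with the most reads lay in Gm17202, with 15 and 34 reads, and Gm26835, with 11 and 23 reads, both noncoding. Neither had its leading models start within 20 nt in the libraries: the 5′ ends were 1740 and 2417 nt apart, while the 3′ ends were 0 and 1 nt apart.

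**Figure D4:**
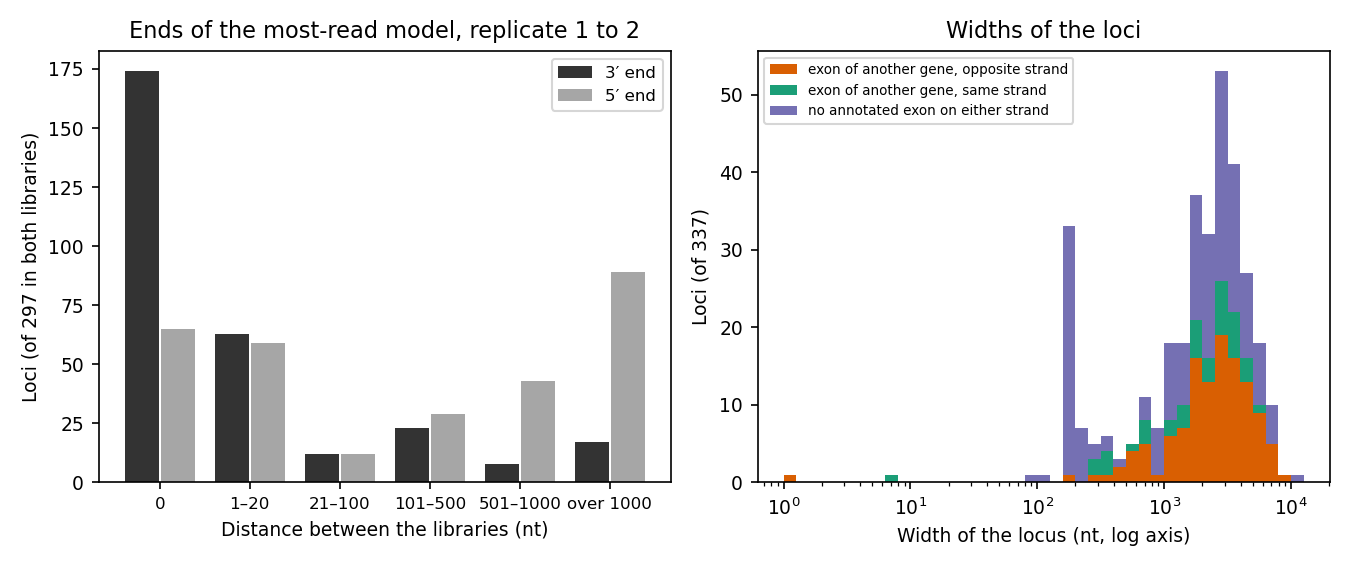
Left, number of loci (of 297 read in both libraries) by the distance in nt between the replicate 1 and replicate 2 ends of the most-read models, for 3′ ends (dark) and 5′ ends (light). Right, number of loci by width in nt (log axis) and class. The 3′ ends coincide in 174 loci and the 5′ ends in 65, and a narrow peak of loci with no exon stands below 350 nt.

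Across the 297 loci read in both libraries, the 3′ end of the leading models recurred more closely than the 5′ end. These are ends of the deposited models and not of single reads, and how the model ends were set was not examined. The 3′ ends of the leading models were identical in 174 and within 20 nt in 237 (79.8%). The 5′ ends were identical in 65 and within 20 nt in 124 (41.8%), with a median distance of 240 nt. The 3′ end was the closer one in 192 loci and the 5′ end in 54. Loci opposite an exon showed the widest gap, at 80.7% for the 3′ end and 33.0% for the 5′ end. A 5′ end within 100 nt of a RefSeq transcript start on the same strand was found at 4 loci only, and at the Camta1 locus the start was that of the circadian gene Per3, at a distance of 0 nt.

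Bases after the 3′ end could be read for 76 of the 337 loci, all in the classes that overlap an exon of another gene, because only bases of annotated transcripts and RefSeq promoters (GRCm38.p6) were used. An A-rich stretch, meaning 12 or more adenines of 20 or a run of 6, followed the end in 25 of the 76 (32.9%, Wilson interval 23.4 to 44.1%). In fixed windows of 20 bases inside the loci the share was 3.33%. All 25 were opposite an exon, 25 of 60 (41.7%, interval 30.1 to 54.3%), and none was among the 16 on the same strand as an exon (interval up to 19.4%). The 2 libraries gave 34.3% and 32.9%. Counts of adenines were split: 28.9% of the 76 had 16 or more of 20 and 1.32% had 12 to 15. All 20 bases were adenine at 6 loci, 5 of which are printed above. On the other side, a T-rich stretch before the 5′ end was seen at 4 of 86 loci (4.65%).

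**Figure D5:**
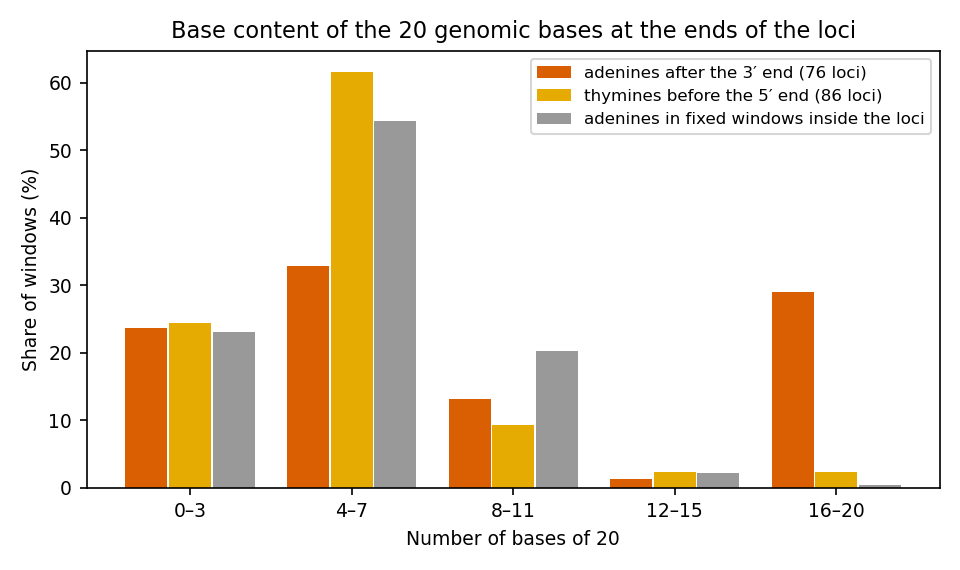
Share of windows (vertical, %) by the number of adenines in the 20 genomic bases after the 3′ end of 76 loci, of thymines in the 20 bases before the 5′ end of 86 loci, and of adenines in fixed windows inside the loci. The bars after the 3′ end have a second peak of 28.9% at 16 to 20 adenines, where the fixed windows have 0.363%.

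Other single-exon models gave a range. Models were taken here at 5 or more reads within 1 library, not pooled, where the flank could be read. An A-rich stretch followed 44.0% of antisense models in replicate 1 and 37.6% in replicate 2. The stretch followed 40.5% and 38.3% of intronic genomic models counted that way. It followed 13.2% and 16.9% of exon-overlapping genomic models, and 2 of 16 and 0 of 25 intergenic ones. Loci with and without the stretch recurred between libraries. Of the 25 A-rich loci 24 were read in both libraries, with 298 and 310 reads, and 75% of those 24 had 3′ ends within 20 nt. Of the 35 opposite loci without the stretch 30 were read in both, with 587 and 706 reads, and 80.0% had 3′ ends that close. The part of priming at encoded adenines in these reads was not tested.

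The hexamers AATAAA and ATTAAA, the usual polyadenylation signals, were searched within 50 bases before the 3′ end on the strand of the locus. Either was present at 22 of the 75 loci with readable bases (29.3%, interval 20.2 to 40.4%), and in 5.47% of fixed windows of that length. The classes stood far apart, with 7.84% of the loci opposite an exon and 75% of the 24 on the same strand as one. At 5 or more reads, exon-overlapping genomic models held one in 80.0% and 77.8%, and antisense models in 9.00% and 8.32%. A run of GGG directly before the 5′ end, searched after the values were seen, was found at 10 of 86 loci (11.6%) and in 1.87% of fixed positions. All 10 were opposite an exon. At 5 or more reads within 1 library, antisense models had 17.1% and 11.9%, exon-overlapping ones 6.85% and 7.96%, and intronic ones 16.7% and 7.14%. A match is a feature of the letters and not a mapped site.

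The hosts numbered 280, of which 251 held 1 locus and 29 held more. Protein-coding hosts made up 171, with 206 loci, and annotated antisense genes 67, with 78 loci. The loci took over 50% of the reads of 146 hosts (52.1%), all of the reads of 40, and 101 hosts had no spliced read in either library. In protein-coding hosts the median was 29.7% of the reads, against 80.0% in antisense hosts. Protein-coding hosts were long, with a median annotated span of 71645 nt against 26102 nt for all 12098 protein-coding genes with 5 or more reads.

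Several hosts held a run of loci. Gm20388 held 12, with 66 and 150 reads, in an intron of 4384418 nt within which 205 other annotated genes lie. Whether the Gm20388 loci also lie in introns of those genes was not examined. Its leading locus had 36 and 69 reads and is opposite Rnf166, a ubiquitin ligase gene, over 8.6% of its length. Fgfr2, a fibroblast growth factor receptor gene, held 8 loci with 22 and 67 reads in an intron of 2815493 nt that spans 67 other genes. Strbp, an RNA-binding protein gene, held 7 loci with 40 and 56 reads in a single intron of 84649 nt. In all, 143 of the 337 loci (42.4%) lay in an intron that holds another whole annotated gene.

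The median host intron was 22623 nt long, and the median locus lay 51.6% of the way through it. With each intron cut into 3 equal parts, 99 loci lay in the first, 138 in the middle and 100 in the last. Of 295 loci in hosts with several introns, 196 (66.4%) lay in the longest one, which held a median of 52.0% of the intronic length. Only 3 loci were within 100 nt of an exon of the host gene.

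The 4 neuronal gene lists held 129 genes, of which 93 (72.1%) had some intronic read and 4 (3.10%) hosted a kept locus. Over all 18512 annotated genes with reads the shares were 15.8% and 1.51%. The lists were chosen with earlier results known, and the difference was not tested. The listed genes were not matched to the other genes in length or in reads. Of 36 synaptic adhesion genes 30 had some intronic read, taking 5.43% of the list's reads in replicate 1 and 12.5% in replicate 2, against 0.587% and 0.948% over all annotated genes. Only Astn2, which acts in neuronal migration, hosted loci of 5 or more reads, with 8 and 15 reads on 2 loci. Nrxn3, a presynaptic adhesion gene, had 4 and 15 intronic reads, and the receptor phosphatase gene Ptprd had 4 and 12, spread over 15 and 13 loci of which none reached 5 reads. Ion channel genes gave 2.76% and 5.95%, led by the potassium channel partner Kcnip4 with 5 and 10 intronic reads, and none of the 30 hosted a kept locus. Glutamate and GABA receptor genes gave 1.28% and 1.64%, with 1 kept locus of 4 and 3 reads in Grin1, the obligate NMDA receptor subunit.

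Genes of synaptic scaffolds and release gave 0.463% and 1.03%, against 0.587% and 0.948% over all annotated genes. In that list the RNA-binding protein genes Celf2 and Rbfox1 hosted a locus each, the first with 0 and 13 reads and the second with 2 and 4, while the synaptotagmin gene Syt1 had 1 and 13 intronic reads and no kept locus. By share of reads, lists of astrocyte, oligodendrocyte and RNA-processing genes were below the shares over all annotated genes. Astrocyte genes gave 0 and 0.0655%, oligodendrocyte genes 0.115% and 0.251%, and genes known for detained introns 0 and 0.133%. Microglia and vascular genes gave 0 and 1.23%, from 9 reads in replicate 2, of which 8 were on microglia markers (7.34% of their reads there). No gene of these lists hosted a kept locus, and long noncoding and snoRNA host genes gave 0.0972% and 0.0755%. Each list of cell type markers of neurons and glia had reads in both libraries, from 130 and 109 on microglia markers to 2191 and 2076 on astrocyte markers. Within the microglia markers, Cx3cr1 had 0 reads in replicate 1 and 7 in replicate 2.

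The libraries were compared locus by locus with an exact binomial test on the 51 loci of 20 or more reads, Benjamini-Hochberg adjusted over 10734 features. This test covers counting error only and compares these libraries. It called 12 of the 51 (23.5%), where 9.01% of all features were called. Of the loci 3 (5.88%) were higher in replicate 1 and 9 (17.6%) in replicate 2, against 3.31% and 5.7% of all features. The background differed by kind. Of annotated genes 4.78% were called, 3.72% higher in replicate 1 and 1.06% higher in replicate 2. Of unannotated genes 32.4% were called, 0.871% higher in replicate 1 and 31.5% higher in replicate 2. Loci with an exon on the opposite strand gave 0 calls higher in replicate 1 and 6 in replicate 2. Those with no exon gave 1 and 2, and those with an exon on the same strand 2 and 1. The median log2 ratio of replicate 1 over replicate 2 was -0.61 over the 51 loci and 0.05 over all features.

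The largest differences were at loci on the same strand as an exon of another gene, and there single-exon models of the other gene overlapped the locus. At the Gm49450 locus replicate 1 held 112 reads and replicate 2 held 0, at least 36.0-fold higher against a floor of 3 reads (adjusted p = 1.5e-30, exact binomial test). The interval is wholly within exons of Tuba1a, the α-tubulin gene, and single-exon models of Tuba1a overlapping it held 0 reads in replicate 1 and 107 in replicate 2. Bhlhb9 had 0 reads in replicate 1 and 45 in replicate 2, at least 15.5-fold lower (adjusted p = 4.7e-12, exact binomial test). Its interval lies within exons of Gprasp1, a receptor sorting gene, whose overlapping single-exon models held 52 reads in replicate 1 and 0 in replicate 2. AC154200.1 had 31 and 0 reads, at least 9.97-fold higher (adjusted p = 1.9e-07, exact binomial test), and overlaps by 1 base the pseudogene Oaz1-ps, whose single-exon models held 10 and 53. Nos1ap, the adaptor of neuronal nitric oxide synthase, had 24 and 4 reads on a locus with no exon of another gene, a log2 ratio of 2.39 ± 0.74 (counting SE, adjusted p = 0.0048, exact binomial test). Exon-overlapping single-exon models of Nos1ap at the same place held 0 and 20.

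At the other 8 called loci, all higher in replicate 2, no other single-exon model overlapped the locus on its strand. Drg1, a GTP-binding protein gene, had 5 and 25 reads on a locus opposite Eif4enif1 (log2 ratio -2.26 ± 0.68, adjusted p = 0.0041, exact binomial test). Gm43713 and Gm47167 had 3 and 18 reads each (log2 ratio -2.45 ± 0.84 each), and Gm46367 had 6 and 26 (log2 ratio -2.08 ± 0.63). The other 4 called were Runx2, Gm37340, Gm26848 and the leading Gm20388 locus, whose log2 ratios were -1.82, -1.88, -0.87 and -0.98. At each of these the reads were higher in replicate 2. Of the unannotated genes tested 31.5% were called in that direction, and the part of a library-wide difference was not tested.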

How the data were processed

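Long-read counts per transcript model from 2 libraries were used as the authors deposited them: whole read counts on TALON models, aligned to mm10 with GENCODE M21, per the file headers and the deposited notes. Model coordinates, lengths and exon numbers came from the deposited annotation. Gene spans are those of all annotated exons of a gene. The aligner, its version and the orientation of reads were not given in the sources used here. Models on spike-in sequences (1.58% of reads in replicate 1, 1.33% in replicate 2) were left out. No column was left unused.

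Members and lists were chosen with earlier results of these data known. Named loci are the 25 with the most reads, up to 3 hosts per role list, and up to 5 called loci on each side; others are said to be chosen later. Libraries were compared by a two-sided exact binomial test (scipy 1.17.1) on features of 20 or more pooled reads, called at an adjusted p of 0.05, with total mouse reads as the scale and 0.5 reads added for ratios. Features were annotated genes without their intronic loci, unannotated genes and intronic loci. In simulated data the test called 32.0% of 197 features changed 2-fold and 86.9% of 199 changed 4-fold. These rates are over all features tested, and rates for the intronic loci alone were not worked out. TMM (edgeR 4.0.16) and DESeq2 1.42.0 size factors served as alternatives on the counts. The DESeq2 size factors came out equal for both libraries, so that setting made no correction for depth.

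No genome was used. Bases came from 141730 GENCODE M21 transcripts and 32851 RefSeq promoters, which agreed wherever they overlapped, so the fixed windows planned for host introns were taken from annotated bases inside the loci. Depth was 857784 and 827970 mouse reads. Wilson intervals and floors of 3 reads cover counting error only. A leading locus is plotted and not described further here.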

Additional observations from a re-analysis of the deposited data

How the results depend on the processing

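The number of loci depended on the minimum of pooled reads: 677 at 3 reads, 139 at 10 and 4437 with no minimum, against 337 at 5. Without one library it was 119 to 199. The share of mouse reads was 0.530% in replicate 1 and 0.777% in replicate 2 with no minimum, and in replicate 2 it was 0.458% at 3 reads and 0.282% at 10. Loci read in both libraries made up 77.3% at 3 reads and 92.8% at 10. Of the loci that differ between libraries there were 25 when 10 or more reads were tested and 16 with no minimum, against 12. There were 16 with totals of annotated genes, 12 under TMM and 10 under DESeq2 size factors, which were equal for both libraries. With no minimum 6 of the 12 loci were shared; those of Gm47167, Gm43713, Runx2, Gm37340, Gm26848 and Gm20388 no longer passed. The other alternatives kept their values within the set limits, 18 of them on the main results. The A-rich share ranged from 36.2% to 39.5% without one library, from 25% to 30.3% under stricter definitions. Leaving out a library left no test between libraries. No paired analysis was possible because the study holds 1 group, with no second group to share replicate numbers.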

Other observations

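Loci were also seen in 2 hosts known for gene silencing in cis, named after their values were seen. Tsix, the antisense partner of Xist, held 2 loci. The first (chrX:103469801-103473001, plus strand) had 4 reads in replicate 1 and 9 in replicate 2, and the second (chrX:103467256-103468036, plus strand) had 4 and 4 and lies wholly opposite an exon of Xist. Airn, the noncoding RNA of the imprinted Igf2r cluster, held 2 loci with no annotated exon on either strand. They had 6 and 7 reads (chr17:12758134-12764017, plus strand) and 4 and 3 reads (chr17:12764234-12767616, plus strand), of 11 and 17 reads given to Airn in all. Neither host had enough reads for the comparison of libraries.

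There were 2 loci of 10 bases or fewer, both of them in replicate 2 only. One in Usp37 is 1 base wide with 6 reads, and one in Fgfr2 is 7 bases wide with 7 reads.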
